A study of Mus musculus with 24 samples.

Results

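The response of the mouse lung to a TGF-β1 transgene was described in the 3 inbred strains that the series design calls fibrosis-resistant. Its members were chosen by the sample labels alone: 9 transgenic (TG) mice, 3 each of 129, BALB/cJ and C3H, were set against 3 wild-type (WT) mice, 1 of each strain, with strain as a fixed effect. These are 12 of the 24 arrays of the series, and the other 12 (8 TG and 4 WT mice of A/J, AKR/J and C57BL/6J, called fibrosis-prone) served for comparison. RNA came from the right lung lobe, and 13499 genes were read as log2 intensities, with 1 probe set for each gene symbol. All mice, WT mice included, drank doxycycline for 2 weeks, the drug that induces the transgene, so TG and WT mice share the drug. Not given in the sources used here are the promoter that drives the transgene, the age and sex of the mice, and whether TG and WT mice were littermates. The emphysema label was positive for BALB/cJ and negative for 129 and C3H. The samples also carry a fibrosis code whose key, taken literally, swaps the resistant and prone strains; the assignment here is that of the series design. The level of Tgfb1 itself was not analysed here.

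TGF-β1 is secreted in a latent complex, bound through latent TGF-β binding proteins to the matrix, and is released by integrins such as αvβ6 on epithelial cells. Freed ligand activates receptor kinases that phosphorylate SMAD2 and SMAD3, which enter the nucleus and switch on matrix genes together with inhibitors of the pathway itself. In the lung it is known for driving fibroblasts to lay down collagen, for changing alveolar epithelium and for restraining parts of the immune response.

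Marker lists of lung cells were set side by side in TG and WT mice, within a list only, since different probe sets cannot be compared in level. Means over lists of markers lay between 12.84 and 12.96 in TG mice and between 12.67 and 12.82 in WT mice for 15 alveolar type 2 genes, and between 11.68 and 12.20 in TG mice and 11.82 and 12.21 in WT mice for 10 alveolar type 1 genes, and for 5 skeletal muscle genes they lay between 6.08 and 6.26 in TG mice and 6.14 and 6.34 in WT mice. A change in a whole lung lobe cannot separate fewer cells of a type from less RNA in each cell. With 1 WT mouse in each strain, a WT mouse that stands apart moves that strain's whole effect. Both kinds of mice included some that stood apart for a cell type or for the clock genes, and the part of these in the results was tested only by leaving them out. Across 10 platelet genes the BALB/cJ WT mouse averaged 9.56, against 7.80 to 8.09 in the TG mice of the 3 strains and 7.91 and 8.18 in the other WT mice. Across 4 fat cell genes the C3H WT mouse averaged 8.91, against 7.28 to 7.92 in TG mice and 7.84 and 7.93 in the other WT mice. One TG mouse of 129 averaged 10.32 across 9 neutrophil genes, against 7.37 to 8.43 in the other TG mice and 7.79 to 7.94 in WT mice. Circadian clock genes averaged 10.24 in a single TG mouse of BALB/cJ and 10.20 in the BALB/cJ WT mouse, against 9.24 to 9.55 in the other TG mice and 9.62 and 9.64 in the other WT mice.

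**Figure D1:**
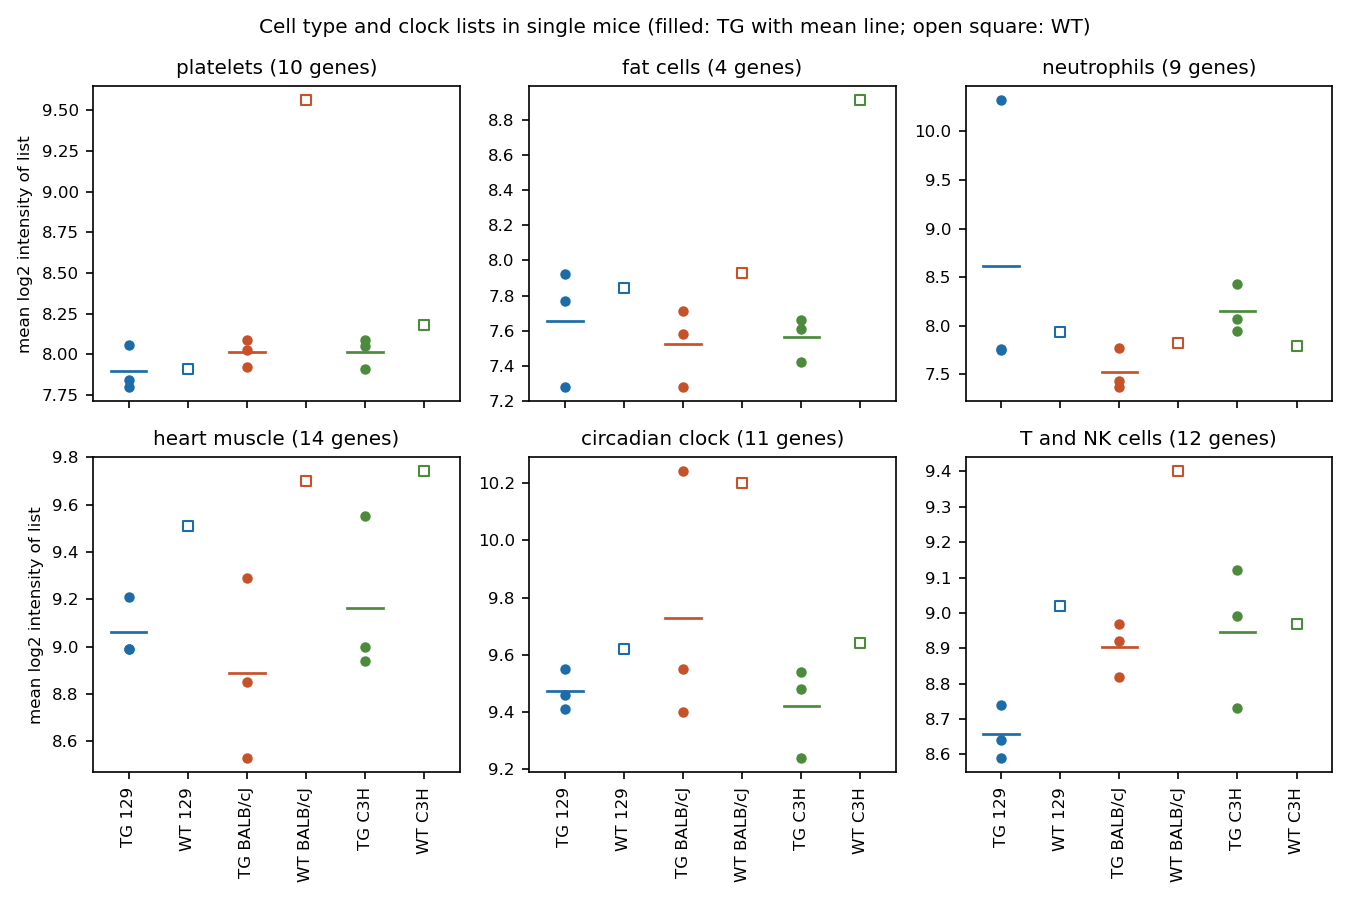
Mean log2 intensity of 6 gene lists in each mouse, with TG mice as filled points (line: mean of 3) left of the WT mouse of the same strain as an open square. The BALB/cJ WT mouse stands at 9.56 for platelet genes, the C3H WT mouse at 8.91 for fat cell genes and 1 TG mouse of 129 at 10.32 for neutrophil genes.

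The transgene was accompanied by a broad change of moderate size. Of 13499 genes, 1469 (10.9%) changed at an adjusted p under 0.05 in limma, 712 (5.27%) higher and 757 (5.61%) lower in TG mice. The median size of a called change was 0.33 log2 units, the median change of all genes was -0.01, and 24 genes rose and 15 fell by at least 2-fold. Among the called genes, every TG mouse lay above its own strain's WT mouse for 656 (4.86% of genes tested) and below it for 682 (5.05%), while such an arrangement, called or not, held for 8.21% of all genes upwards and 8.93% downwards. The 9 TG values lay wholly above the 3 WT values for 3.53% of genes and wholly below them for 3.6%. The 15 genes of largest change each way named below were chosen with every TG mouse on the same side of its own WT mouse. That choice favours a lack of overlap, which for these genes is description only. Leaving out the WT mouse of any strain leaves only the other 2 strains to estimate the effect. The count fell to 720 without the BALB/cJ WT mouse, to 567 without the 129 WT mouse and to 1147 without the C3H WT mouse. Without the 129 mouse high in neutrophil genes it was 1472, and without the BALB/cJ TG mouse high in clock genes 1387.

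The gene that rose most was Fabp7, a fatty acid-binding protein best known from the brain. Its log2 intensity ran from 7.96 over a median of 9.64 to 10.60 in TG mice, against 7.19, 7.04 and 7.22 in the WT mice of 129, BALB/cJ and C3H. Every TG mouse was above every WT mouse, by 2.34 ± 0.32 log2 units on average (SE, n = 9 and 3; 5.08-fold; limma adjusted p = 0.0009). Among strains the TG minus WT difference was 2.77 in 129 and 3.07 in BALB/cJ and 1.20 in C3H, and a test of strain dependence did not pass (adjusted p = 0.85).

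Secreted proteins of inflammation and acute phase were among the other genes of largest rise. Lrg1, a leucine-rich glycoprotein that modulates TGF-β signalling in endothelium, ran from 11.39 over 12.01 to 12.37 in TG mice, against 10.11, 10.85 and 10.09 in WT mice (1.63 ± 0.20, adjusted p = 0.00053). Itih4, a plasma acute phase protein, ran from 11.31 over 11.78 to 12.33 in TG mice, against 10.22, 10.64 and 10.43 in WT mice (1.44 ± 0.18, adjusted p = 0.00053). For Lcn2, a lipocalin that binds bacterial siderophores, the range in TG mice was 12.74 to 13.47 with a median of 13.18, against 11.89, 12.02 and 11.59 in WT mice (1.35 ± 0.10, adjusted p = 2.1e-05). The groups did not overlap for any of these genes. On the acute phase and IL-6 response list 8 of 17 measured members rose and 1 fell, with a median change of 0.23, and the list also held Steap4, a metalloreductase (1.00, lost in 5 of 23 alternative analyses), and Socs3, a feedback inhibitor of cytokine signalling (0.93). Without the 129 WT mouse 5 members rose and 0 fell. Il6ra, the IL-6 receptor, was the member that fell (-0.31). Il6 itself differed by 0.70 without passing the test.

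**Figure D2:**
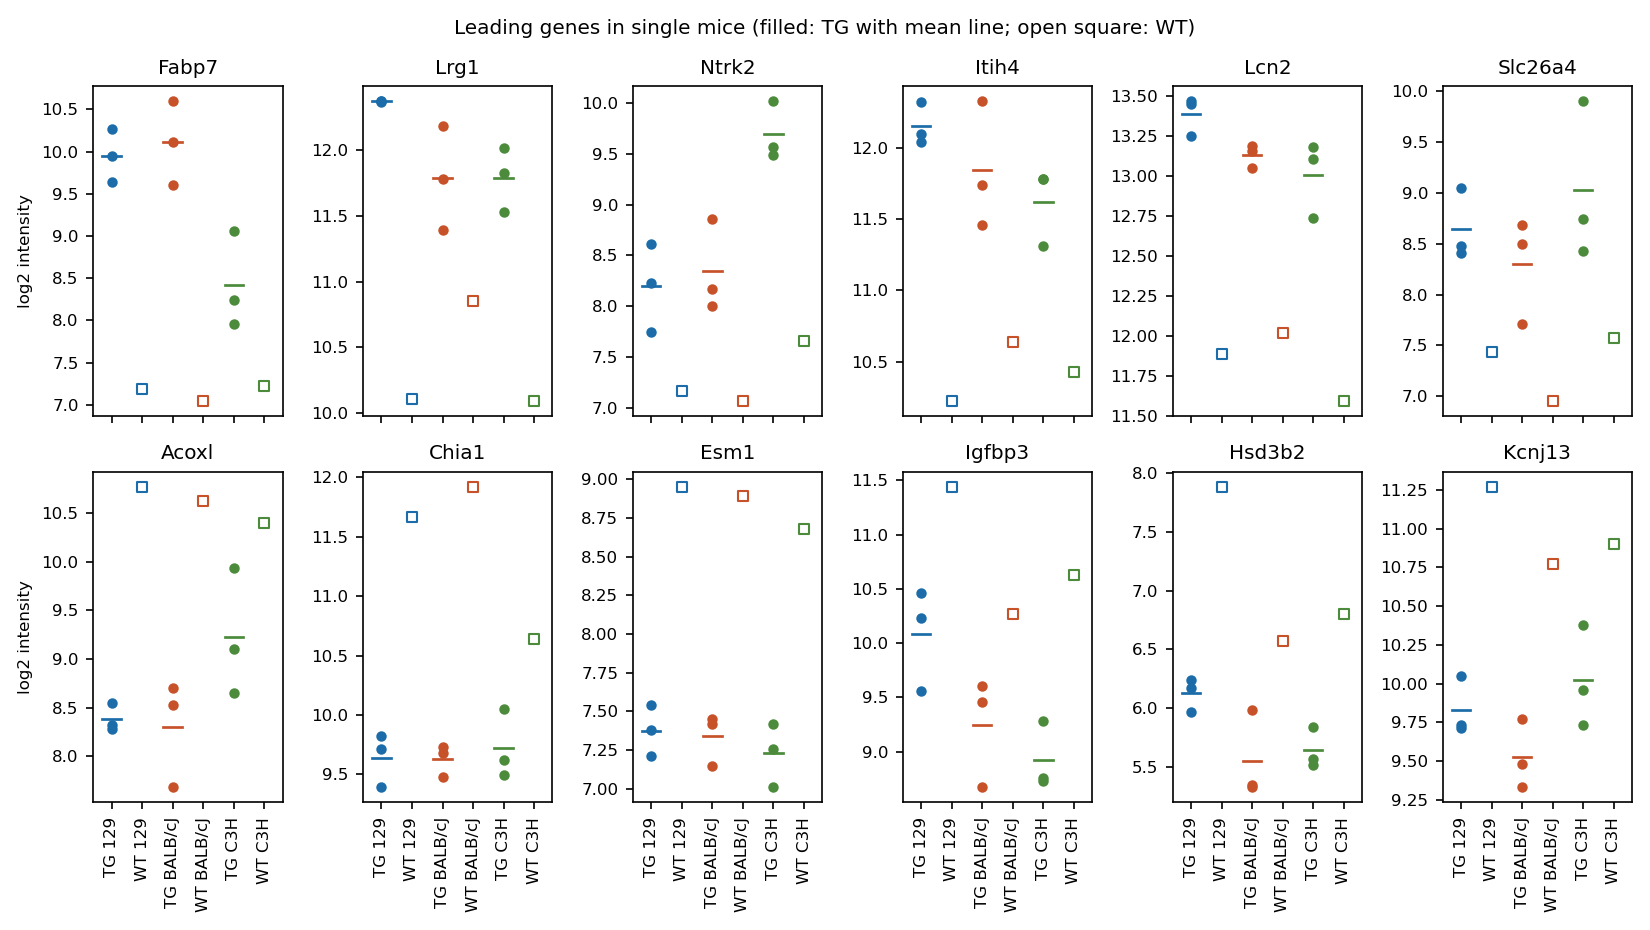
Log2 intensity in each mouse of the 6 called genes with the largest rise (top) and the 6 with the largest fall (bottom). Only genes with every TG mouse on the same side of its own strain's WT mouse were eligible. TG mice are filled points (line: mean of 3) left of the WT mouse of the same strain, an open square. Fabp7 lay at 7.96 or above in TG mice and at 7.22 or below in WT mice, and Esm1 at 7.54 or below in TG mice and 8.68 or above in WT mice.

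Most calls among the genes that hold, release or damp TGF-β were higher in TG mice. Of 20 measured genes for TGF-β activation, receptors and feedback, 11 rose and 2 fell, with a median change of 0.25. Itgb6, the β6 chain of the integrin that frees latent TGF-β, ran from 11.43 over 11.64 to 11.99 in TG mice, against 10.06, 10.48 and 11.01 in WT mice (1.16 ± 0.14, adjusted p = 0.0004). Ltbp2, a matrix protein of the latent TGF-β binding protein family, ran from 10.45 over 10.88 to 11.35 in TG mice, against 9.63, 9.77 and 9.96 in WT mice (1.14 ± 0.15, adjusted p = 0.00083). Pmepa1, a TGF-β-induced membrane protein that restrains SMAD signalling, ran from 11.67 over 12.19 to 12.41 in TG mice, against 11.01, 11.12 and 10.75 in WT mice (1.17 ± 0.08, adjusted p = 2.1e-05). All 9 TG mice exceeded all 3 WT mice for each of the 3 genes, and the Pmepa1 effect was nearly even over strains (1.28 in 129, 1.15 in BALB/cJ and 1.09 in C3H). Ltbp3, which tethers latent TGF-β, rose by 0.83 ± 0.07, the ligand genes Tgfb3 and Tgfb2 rose by 0.59 and 0.39, and the integrin chains Itgb8 and Itgav by 0.57 and 0.39. The 2 that fell were the inhibitors Bambi (-0.25), a pseudoreceptor, and Smurf2 (-0.20), a ubiquitin ligase that degrades the receptors. Without the BALB/cJ WT mouse 7 members rose and 0 fell, and without the C3H WT mouse 10 rose and 0 fell.

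Collagen genes were higher in TG mice. All 21 measured genes of collagen and its crosslinking had a change above 0, 9 rose at the threshold, 0 fell, and the median was 0.22. Col3a1, a fibrillar collagen, ran from 10.49 over 10.55 to 10.74 in TG mice, against 9.57, 9.77 and 9.70 in WT mice (0.90 ± 0.06, adjusted p = 2.1e-05). Col1a1, the main chain of type I collagen, ran from 11.04 over 11.24 to 11.53 in TG mice, against 10.40, 10.69 and 10.36 in WT mice (0.77 ± 0.08, adjusted p = 0.00022). No TG value of either gene reached down to a WT value. Lox, the enzyme that crosslinks collagen and elastin, rose by 0.99 ± 0.15, but its 129 WT mouse (11.18) lay above the lowest TG mouse (11.14). Without the 129 WT mouse 5 of the 21 collagen genes were called, all higher.

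To show the DNA upstream of genes that changed, the 250 bases before the start of Col3a1, Ltbp2 and Lcn2, which rose, are set beside those of Esm1, an endothelial gene that fell. Capitals mark the 5-base SMAD box CAGAC or its reverse complement GTCTG. Sequences are from RefSeq (GRCm38.p6), 5′ to 3′ on the strand of the gene, at chr1:45311288-45311537 (plus strand), chr12:84876492-84876741 (minus strand), chr2:32387740-32387989 (minus strand) and chr13:113209409-113209658 (plus strand).
Col3a1: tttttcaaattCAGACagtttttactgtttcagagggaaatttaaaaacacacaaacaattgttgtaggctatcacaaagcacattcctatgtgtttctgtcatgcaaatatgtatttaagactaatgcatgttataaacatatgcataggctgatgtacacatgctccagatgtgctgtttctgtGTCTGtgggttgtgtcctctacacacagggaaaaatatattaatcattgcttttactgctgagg
Ltbp2: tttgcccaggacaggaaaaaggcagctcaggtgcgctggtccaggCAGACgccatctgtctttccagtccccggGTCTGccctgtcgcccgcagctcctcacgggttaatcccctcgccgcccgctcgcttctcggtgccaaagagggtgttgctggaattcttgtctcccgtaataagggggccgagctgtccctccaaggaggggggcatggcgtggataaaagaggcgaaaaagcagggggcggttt
Lcn2: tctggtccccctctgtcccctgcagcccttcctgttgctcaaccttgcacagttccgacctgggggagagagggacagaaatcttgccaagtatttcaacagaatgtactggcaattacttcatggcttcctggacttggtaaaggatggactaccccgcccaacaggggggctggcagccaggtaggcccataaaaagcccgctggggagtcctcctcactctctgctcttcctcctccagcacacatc
Esm1: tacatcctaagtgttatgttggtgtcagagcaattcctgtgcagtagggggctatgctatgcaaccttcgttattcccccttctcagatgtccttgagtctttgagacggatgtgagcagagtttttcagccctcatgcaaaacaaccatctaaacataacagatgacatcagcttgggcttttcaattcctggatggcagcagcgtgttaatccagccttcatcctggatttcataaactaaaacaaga
Col3a1 and Ltbp2 each held 2 SMAD boxes in this window, while Lcn2 and Esm1 held 0, and Lrg1, which rose and was also searched, held 1. Of these 5 genes only Esm1 fell, so the counts cannot show whether boxes go with the direction of change, which was not tested. Such a box was found on either strand in 42.2% of 32851 promoter windows of the same length. The STAT motif TTCNNNGAA (7.02% of windows) and the AP-1 motif TGANTCA (6.75%) were in none of the 4 windows shown. A match of letters describes the window and says nothing about binding.

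Matricellular proteins, which sit in the matrix and signal to cells, rose where they passed the test. Of 24 measured members 10 rose, 0 fell and the median was 0.28. Itgbl1, a secreted integrin-like protein, ran from 8.77 over 9.04 to 9.46 in TG mice, against 7.79, 7.99 and 7.65 in WT mice (1.26 ± 0.13, adjusted p = 0.00021). Tnc, tenascin-C, ran from 9.66 over 10.27 to 11.04 in TG mice, against 9.0, 9.20 and 9.12 in WT mice (1.16 ± 0.19, adjusted p = 0.0029). Both were separated without overlap. Ccn4, a secreted Wnt target, rose by 0.97 ± 0.11, with a WT value of 6.96 in 129 well under those of BALB/cJ (8.07) and C3H (8.16), so the groups overlapped over strains but not within any of them. Fbln5 (fibulin-5, 0.65), Fn1 (fibronectin, 0.58) and Ccn2 (connective tissue growth factor, 0.44) rose, while Postn, periostin, differed by 0.15 without passing. Among proteases and their inhibitors 6 of 17 rose and 0 fell, led by Ctsk, a collagen-degrading cathepsin (0.81 ± 0.11), and Mmp14, a membrane-bound collagenase (0.80 ± 0.11). The protease count was 2 without the WT mouse of any 1 strain.

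In the IGF system the ligand and a main binding protein moved in opposite directions. Igf1, a growth factor for mesenchyme and epithelium, ran from 9.79 over 10.37 to 10.45 in TG mice, against 8.77, 9.33 and 8.80 in WT mice (1.29 ± 0.11, adjusted p = 6.4e-05). Igfbp3, which carries IGF1, ran from 8.67 over 9.46 to 10.46 in TG mice, against 11.44, 10.27 and 10.63 in WT mice (-1.37 ± 0.22, adjusted p = 0.0025). Igf1 was free of overlap, while the highest Igfbp3 value among TG mice, from 129, lay above the BALB/cJ WT mouse. Igfbp6 fell as well (-0.88 ± 0.18), and over the list of 9 genes 2 rose and 3 fell, with a median of 0.04. Leaving out the 129 or the C3H WT mouse reduced these calls to 1 in each direction, and leaving out that of BALB/cJ to 1 higher and 2 lower.

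BMP and Wnt genes gave mixed pictures. Of 18 BMP pathway genes 1 rose and 5 fell (median -0.05): the ligands Bmp6 (-0.62 ± 0.08) and Bmp7 (-0.34 ± 0.06), the receptors Bmpr2 and Acvrl1 (both -0.24) and the co-receptor Eng (-0.41 ± 0.07). Bmp6 ran from 11.36 over 11.61 to 11.80 in TG mice, against 12.13, 12.26 and 12.24 in WT mice, with no overlap. Id2, a transcriptional regulator induced by BMP, was the member that rose (0.21). Of 18 Wnt genes 5 rose and 1 fell (median 0.05). Fzd2, a Wnt receptor, rose by 0.72 ± 0.07 and nearly alike in 129 (0.72), BALB/cJ (0.67) and C3H (0.77). Lef1, a transcription factor of the pathway that is also high in lymphocytes, was the one that fell (-0.53 ± 0.09). Without the 129 WT mouse 2 Wnt genes rose and 1 fell.

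**Figure D3:**
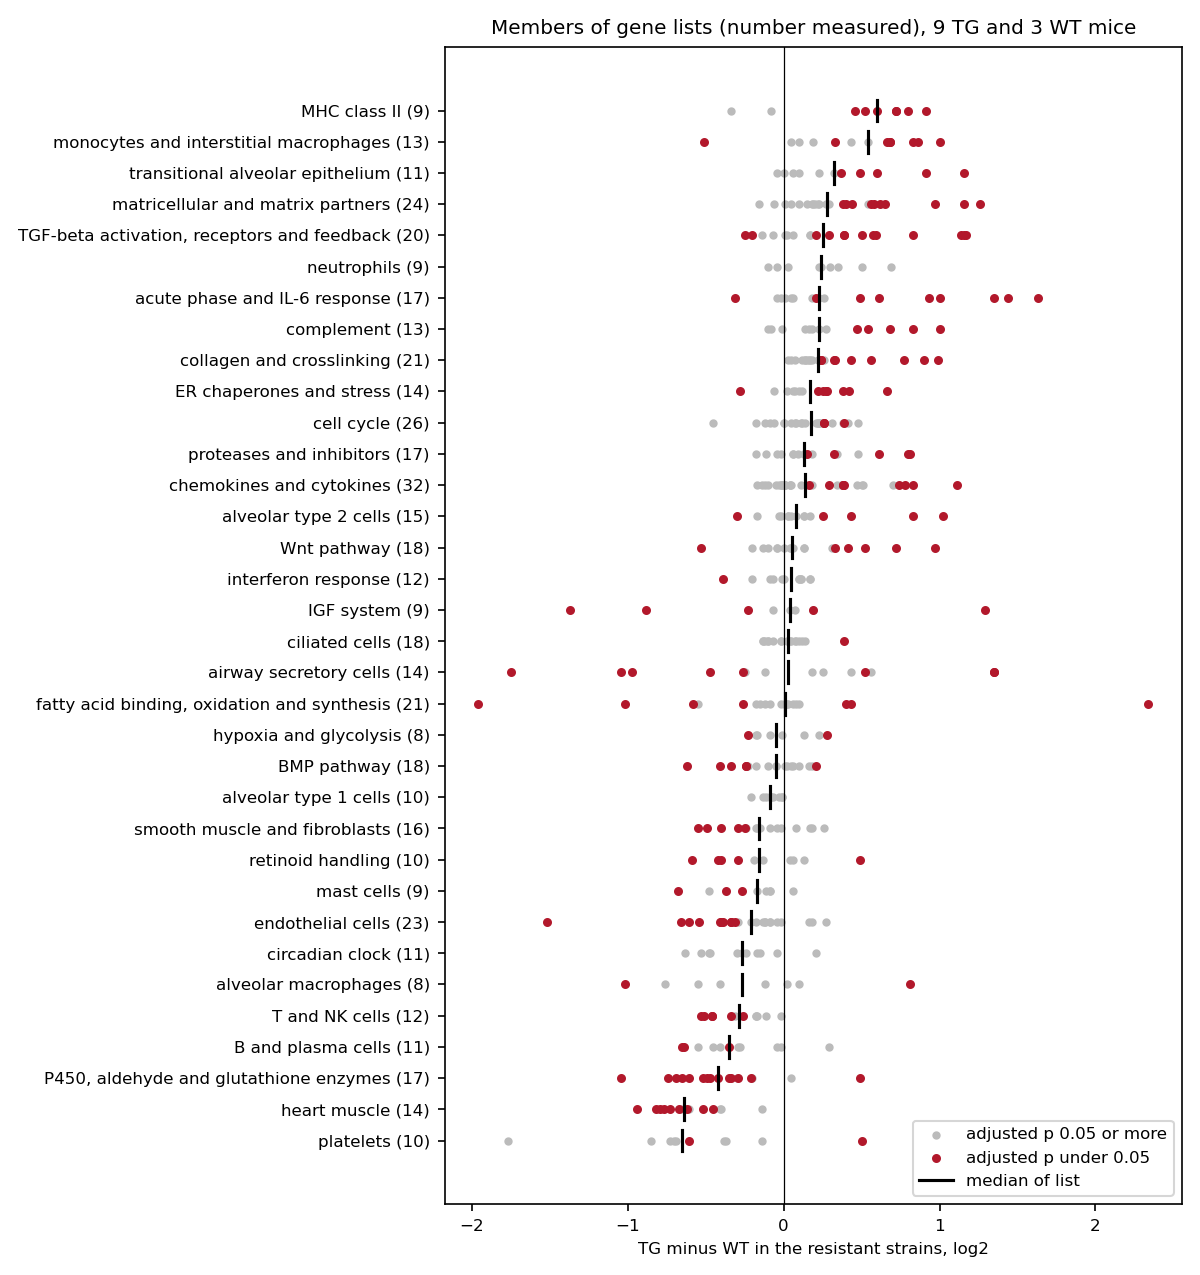
TG minus WT difference (log2) of each measured member of the gene lists with 8 or more measured genes, ordered by the list's median (black bar); red points passed limma at an adjusted p under 0.05 and grey points did not. MHC class II genes have the highest median (0.60), while the lists of P450, aldehyde and glutathione enzymes (-0.42) and heart muscle (-0.64) lie lowest among lists with more than 2 calls.

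Calls among alveolar epithelial genes were mostly higher in TG mice. Of 11 genes of the transitional state between alveolar type 2 and type 1 cells, 5 rose and 0 fell (median 0.32): Itgb6, the cell cycle inhibitor Sfn (0.91 ± 0.11) and the keratins Krt8 (0.60 ± 0.09), Krt18 (0.49, lost in 13 of 23 alternative analyses) and Krt7 (0.37). Krt8 ran from 12.30 over 12.62 to 12.98 in TG mice, against 12.23, 11.83 and 12.06 in WT mice. Without the BALB/cJ WT mouse 3 of the 11 were called. Of 10 alveolar type 1 genes 0 were called by limma and 1 had an unadjusted p under 0.05, with changes from -0.21 to -0.01. Of 15 alveolar type 2 genes 4 rose and 1 fell (median 0.08), and the surfactant genes Sftpc (0.03) and Sftpa1 (-0.03) and the lamellar body transporter Abca3 (-0.02) were near 0. Chil1, a chitinase-like protein, rose by 1.02 ± 0.18, of which 1.76 was in 129, 0.68 in BALB/cJ and 0.61 in C3H. Il33, an alarmin cytokine of type 2 cells, rose by 0.83 ± 0.12. Without the C3H WT mouse 3 type 2 genes rose and 0 fell.

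Airway genes moved in both directions. Chia1, acidic mammalian chitinase, ran from 9.39 over 9.68 to 10.05 in TG mice, against 11.67, 11.92 and 10.64 in WT mice (-1.75 ± 0.20, adjusted p = 0.00039). Gabrp, a GABA receptor subunit, ran from 10.22 over 10.60 to 11.14 in TG mice, against 11.57, 11.63 and 11.79 in WT mice (-1.04 ± 0.09, adjusted p = 9.2e-05). Neither overlapped. Pigr, which carries IgA into the airway, fell by 0.97 on the log2 scale and the club cell gene Scgb1a1 by 0.26, while Bpifb1, a secreted antibacterial protein, rose by 1.35 ± 0.29, so that over 14 airway secretory genes 3 rose and 5 fell (median 0.03). Of 18 ciliated cell genes 1 rose and 0 fell (median 0.03), and 0 were called without the WT mouse of 129 or of C3H.

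Other epithelial and transport genes were among the largest changes. Those that rose included Tgm1, a transglutaminase of the cornified envelope (1.33 ± 0.16), Slc26a4, an anion exchanger of airway epithelium (1.34 ± 0.27), Ntrk2, the receptor for brain-derived neurotrophic factor (1.45 ± 0.23), Tc2n (1.21 ± 0.11) and Pkhd1, fibrocystin of the primary cilium (1.14 ± 0.18). Slc26a4 kept its call in all but 2 and Ntrk2 in all but 1 of 23 alternative analyses. Those that fell included the potassium channel Kcnj13 (-1.19 ± 0.14), the potassium channel subunit Lrrc26 (-1.18 ± 0.13), the poly(A) polymerase Tent5c (-1.01 ± 0.10), the probe set annotated to Mir145a (-1.14 ± 0.20), a microRNA gene known from smooth muscle, and Gm12474 (-1.02 ± 0.10). For all 10 genes the 9 TG mice lay wholly on one side of the 3 WT mice. The rule that named these genes required every TG mouse on the same side of its own WT mouse, which favours such a separation.

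Detoxifying enzymes fell. Of 17 measured P450, aldehyde and glutathione enzymes, 13 fell and 1 rose, with a median of -0.42, the count of falls being 8 without the 129 or the BALB/cJ WT mouse. Aox3, an aldehyde oxidase, ran from 9.87 over 10.06 to 10.36 in TG mice, against 11.29, 11.12 and 10.98 in WT mice (-1.04 ± 0.10, adjusted p = 0.00013). Cyp4b1, a P450 of lung epithelium, ran from 11.94 over 12.05 to 12.37 in TG mice, against 13.02, 12.69 and 12.84 in WT mice (-0.74 ± 0.06, adjusted p = 7.4e-05). The groups of both stood apart. Aldh1a7 (-0.69 ± 0.05) and Gsta3 (-0.65 ± 0.12), an aldehyde dehydrogenase and a glutathione transferase, fell too, and Adh1, an alcohol and retinol dehydrogenase, rose (0.49 ± 0.11, lost in 5 of 23 alternative analyses). Outside that list Cyp4f15, another P450, fell by 1.08 and Hsd3b2, a steroid dehydrogenase, by 1.31 on the log2 scale. Hsd3b2 was dim in TG mice, at 5.33 to 6.24, under the lower quartile of all values, 6.75. Its WT values were 7.88 in 129, 6.57 in BALB/cJ and 6.80 in C3H.

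Acoxl, a gene related to the peroxisomal acyl-CoA oxidases, had the largest fall. It ran from 7.68 over 8.55 to 9.94 in TG mice, against 10.77, 10.62 and 10.40 in WT mice (-1.96 ± 0.28, adjusted p = 0.0013), with no overlap. Of 21 genes of fatty acid binding, oxidation and synthesis 3 rose and 4 fell (median 0.01), and without the C3H WT mouse 3 rose and 1 fell. Fabp4, a fatty acid-binding protein of fat, macrophages and endothelium, ran from 8.09 over 8.69 to 8.90 in TG mice, against 9.14, 9.22 and 10.46 in WT mice (-1.02 ± 0.25, adjusted p = 0.022). Car3, a carbonic anhydrase of fat and muscle, ran from 10.37 over 11.50 to 12.12 in TG mice, against 11.88, 12.31 and 13.19 in WT mice (-1.02 ± 0.30, adjusted p = 0.047). Fabp4 did not overlap, while the highest Car3 value of TG mice lay above the 129 WT mouse. For both the C3H WT mouse, which was high across fat cell genes, was the highest, and the strain difference was -1.91 for Fabp4 and -1.74 for Car3 in C3H against -0.72 to -0.55 in 129 and BALB/cJ. The Fabp4 call was lost without that mouse and in 4 of 23 alternative analyses in all, and the Car3 call in 13.

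Endothelial genes fell or did not pass the test. Of 23 measured, 10 fell and 0 rose (median -0.21). Esm1, endocan of growing vessels, had the smallest p of all genes: it ran from 7.01 over 7.38 to 7.54 in TG mice, against 8.95, 8.89 and 8.68 in WT mice (-1.52 ± 0.09, adjusted p = 1.2e-05). The distance between the groups was wide in each strain, at -1.57 in 129, -1.55 in BALB/cJ and -1.45 in C3H. Clec14a (-0.66 ± 0.09), Ednrb, the endothelin B receptor (-0.61 ± 0.10), and Tek, the angiopoietin receptor (-0.54 ± 0.07), followed, while the general endothelial marker Pecam1 differed by -0.12 without passing. Of 16 smooth muscle and fibroblast markers 5 fell and 0 rose (median -0.16), among them Myh11 (-0.55 ± 0.12), Des (-0.49 ± 0.09) and Acta2 (-0.29 ± 0.08, lost in 11 of 23 alternative analyses), which encode contractile and filament proteins. Tcf21 fell as well (-0.40 ± 0.08, lost in 5 of 23). Without the BALB/cJ WT mouse none of these 16 was called, and without that of 129 only 2.

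Heart muscle genes, which reach a lung sample through the sleeves of the pulmonary veins or attached tissue, fell: 9 of 14 were called, all lower, with a median of -0.64. Their mean was 8.53 to 9.55 in TG mice and 9.51 to 9.74 in WT mice, and 1 call was left without the BALB/cJ WT mouse and 3 without that of 129. The part that the amount of such tissue in a sample plays was not tested.

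Most MHC class II genes were higher in TG mice, and macrophage genes were mixed. Of 9 MHC class II genes 7 rose and 0 fell, with a median of 0.60. Ciita, the transactivator of the class, ran from 9.33 over 9.72 to 9.95 in TG mice, against 8.94, 8.80 and 8.89 in WT mice (0.80 ± 0.07, adjusted p = 8.7e-05), so no mouse overlapped. H2-Ab1 rose by 0.72 ± 0.09 and Cd74, the invariant chain, by 0.46. Of 13 monocyte and interstitial macrophage genes 7 rose and 1 fell (median 0.54): the complement genes C1qa, C1qb and C1qc (0.68, 0.83 and 1.00), Ms4a7 (0.86 ± 0.13), Cd14 (0.68 ± 0.13), Mgl2 (0.66) and Trem2 (0.33) rose, and F13a1, a coagulation factor of monocytes, fell (-0.51). Their summed level, as a mean of 13 genes, was 9.17 to 9.58 in TG mice and 8.87 to 9.01 in WT mice. Without the WT mouse of 129 or of BALB/cJ 5 rose and 0 fell. Of 8 alveolar macrophage genes 1 rose and 1 fell (median -0.27), the fall being lost without the C3H WT mouse.

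Lymphocyte genes were lower in part. Of 12 T and NK cell genes 6 fell and 0 rose (median -0.28), among them Ccr7, a homing receptor (-0.51 ± 0.11), and Il7r, the IL-7 receptor (-0.46 ± 0.09). The list mean lay at 8.59 to 9.12 in TG mice and 8.97 to 9.40 in WT mice, and 1 gene was left as called without the WT mouse of 129 or of BALB/cJ. In C3H the list median was -0.01. Of 11 B and plasma cell genes 3 fell, and 0 were called without either of those mice. Of 9 neutrophil genes 0 were called by limma and 1 had an unadjusted p under 0.05. S100a8, a calcium-binding protein of neutrophils that was not called, ran from 6.70 over 7.14 to 10.96 in TG mice, against 6.89, 6.87 and 6.75 in WT mice, and the highest value belonged to a lone TG mouse. Of 9 mast cell genes 3 fell, led by Cpa3, a mast cell carboxypeptidase (-0.68 ± 0.16), which had its highest value, 8.14, in the C3H WT mouse, and 1 call was left without it.

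Chemokines and cytokines rose where they changed: 9 of 32 rose and 0 fell (median 0.13). Tnfsf18, the GITR ligand, ran from 6.81 over 7.19 to 8.51 in TG mice, against 6.33, 6.19 and 6.24 in WT mice (1.11 ± 0.27, adjusted p = 0.02, lost in 6 of 23 alternative analyses), without overlap. Cxcl14 rose by 0.74 ± 0.16 (lost in 6 of 23, the 24-array fit among them), and Cxcl13, a B cell attractant, by 0.78 ± 0.23, with strain effects of 1.12 in 129, 1.26 in BALB/cJ and -0.04 in C3H, a call lost in 16 of 23 alternatives. The count was 3 without the WT mouse of 129 and 4 without that of BALB/cJ. Complement genes rose in 5 of 13 cases, with Hc, component C5, at 0.54 ± 0.06. Of 12 interferon response genes 0 rose and 1 fell, a call lost without the WT mouse of any 1 strain and without either TG mouse that stood apart. Of 14 ER chaperone genes 7 rose and 1 fell (median 0.17), and Sdf2l1 rose by 0.66 ± 0.09 and Hspa5, the chaperone BiP, by 0.38 ± 0.07, with 5 higher and 0 lower without the 129 WT mouse.

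The strains were then compared with one another in a limma fit of 12 group means over all 24 arrays, which lends every strain the same estimate of spread. The 129 mice gave 398 called genes (2.95%), 210 higher (1.56%) and 188 lower (1.39%). BALB/cJ mice gave 305 (2.26%), 134 higher (0.993%) and 171 lower (1.27%), and C3H mice 111 (0.822%), 66 higher (0.489%) and 45 lower (0.333%), a split that became 52 higher and 61 lower after median centring. The count was 226 in 129 without its TG mouse 3, 142 in BALB/cJ without its TG mouse 1, and 49 and 16 in C3H without its TG mouse 1 or 2, so these counts rest on single mice. All genes called in 2 strains moved the same way in both: 119 in 129 and BALB/cJ (29.9% of 129 calls and 39% of BALB/cJ calls), 62 in 129 and C3H (15.6% and 55.9%) and 47 in BALB/cJ and C3H (15.4% and 42.3%). As a description over 13499 genes, effects correlated at 0.54 between 129 and BALB/cJ, 0.57 between 129 and C3H and 0.47 between BALB/cJ and C3H.

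Called in each of the 3 strains were 39 genes, 29 higher and 10 lower. Beside Igf1, Lcn2, Itih4, Pmepa1, Itgb6, Tc2n and Tgm1, those that rose held the matrix genes Col3a1, Ccn4, Sparc (0.40) and Ltbp3, the receptor Fzd2, and Ciita, Cd74 and C1qc. Chosen after their values were seen, Ror1 (0.98), a Wnt5a receptor, and Mrc2 (0.67), a collagen uptake receptor, were also among them. Those that fell included Esm1, Cyp4f15, Tent5c, Gm12474 and Aldh1a7. Orm3, an orosomucoid outside the acute phase list and chosen after its values were seen, fell too (-0.71).

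**Figure D4:**
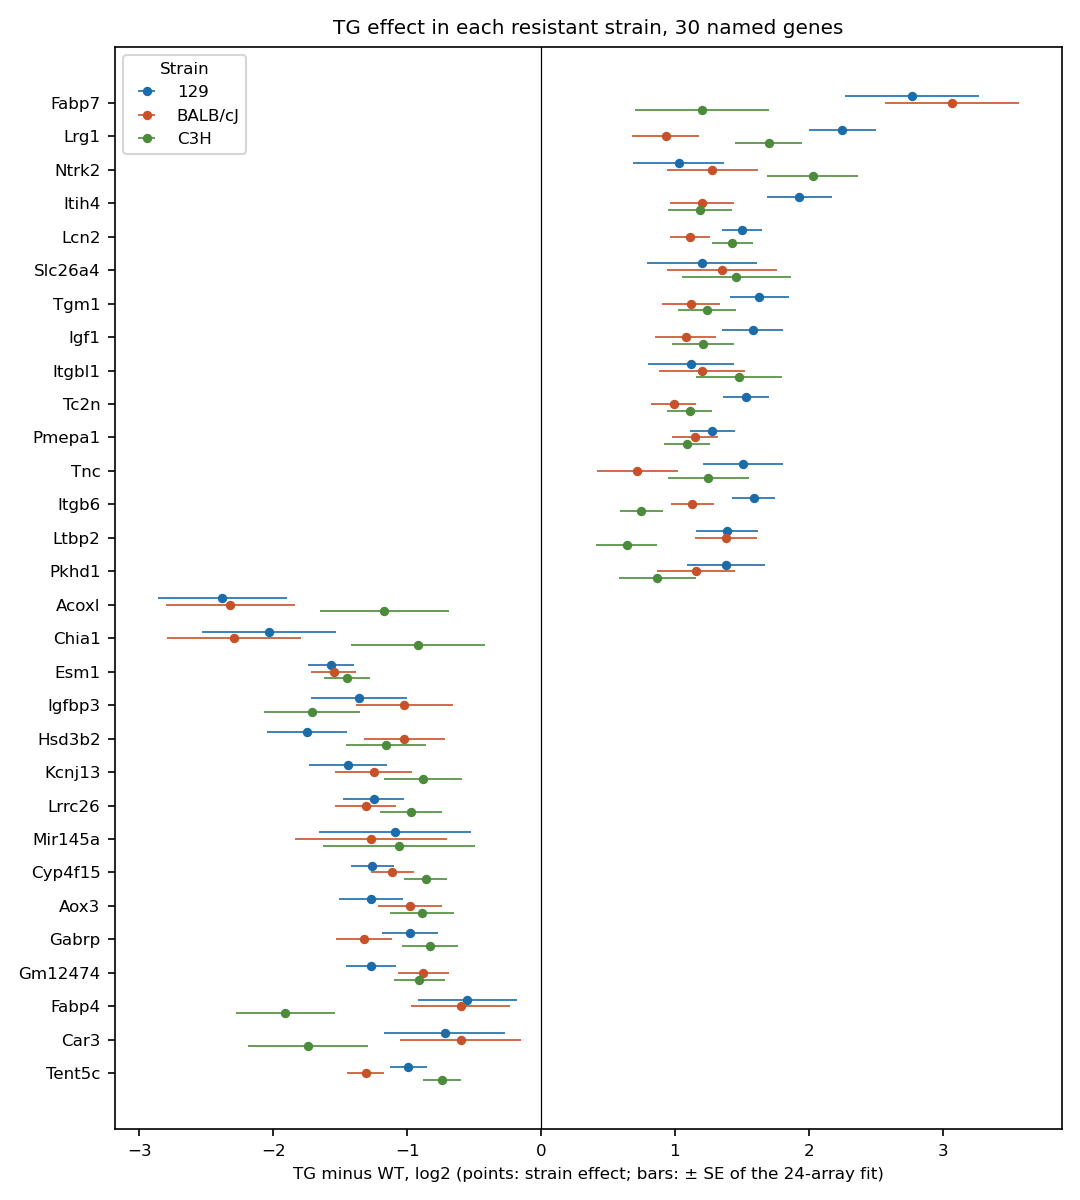
TG minus WT difference (log2) in 129, BALB/cJ and C3H for the 15 called genes with the largest rise and the 15 with the largest fall. Only genes with every TG mouse on the same side of its own strain's WT mouse were eligible. Points are strain effects and bars are ± SE of the 24-array fit. Esm1 (-1.57, -1.55 and -1.45) and Pmepa1 (1.28, 1.15 and 1.09) are nearly even over strains, while Fabp4 and Car3 lie lowest in C3H.

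Dependence of the effect on the resistant strain was found for 8 genes (0.0593%), each of which rested on 1 WT mouse. Ppbp, a platelet chemokine, stood at 12.58 in the BALB/cJ WT mouse, against 7.26 to 8.55 in TG mice and 7.87 and 8.70 in the WT mice of 129 and C3H, and its strain effects spanned 4.07 log2 units (F test in limma, adjusted p = 0.002). F5 (coagulation factor V), P2ry12 (platelet ADP receptor) and Pf4 (platelet factor 4) followed the same mouse, with spans of 1.82, 1.66 and 1.58, as did Tubb1 (1.88) and Rgs18 (2.89), which were outside the 6 genes of the naming rule. Mcpt4, a mast cell protease, was 7.16 in the C3H WT mouse, against 5.80 to 5.98 in TG mice and 6.05 in both other WT mice. Scarna13, a small Cajal body RNA, was 11.25 in the 129 WT mouse, against 8.97 to 9.51 in TG mice and 9.02 and 9.24 in the other WT mice. Without the BALB/cJ WT mouse 2 genes were called, and without the BALB/cJ TG mouse high in clock genes 18. With 1 WT mouse in each strain, strain and mouse cannot be told apart for these genes.

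Set against the prone strains in the same 24-array fit, the resistant strains had fewer calls: 1444 genes (10.7%), 664 higher (4.92%) and 780 lower (5.78%), against 3172 (23.5%), 1621 higher (12%) and 1551 lower (11.5%), in the prone strains, which had 4 WT mice in place of 3. Called in both sets were 1114 genes, 77.1% of the resistant and 35.1% of the prone calls, and 1108 of them moved the same way. The 2 effects share no mouse, and over all genes they correlated at 0.74. A direct test of resistant minus prone called 64 genes (0.474%), 30 with a higher (0.222%) and 34 with a lower (0.252%) effect in the resistant strains. This count was 6, 23 and 13 without the WT mouse of 129, BALB/cJ or C3H, and 128 without the BALB/cJ TG mouse high in clock genes. Without any other single TG mouse of the resistant strains it was between 8 and 84. Single mice of the prone strains were not left out. When whole strains of either set were left out, the count ran from 1 to 363. The SE beside a resistant effect below is that of the 12-array fit.

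Genes of cell division differed in count between the sets. Of 26 cell cycle genes 1 rose in the resistant and 21 rose in the prone strains, with medians of 0.17 and 0.64. Over all genes 4.92% rose in the resistant and 12% in the prone strains, so the resistant count lay near the share of all genes. The difference of TG effects itself passed limma for 2 of the 26, Bub1b and Racgap1, while 21 of the 26 had an unadjusted p under 0.05 for it. Racgap1, needed for cytokinesis, ran from 7.36 over 7.59 to 8.05 in resistant TG mice, against 7.54, 7.72 and 7.60 in their WT mice (0.00 ± 0.10), and its effect was 0.86 ± 0.09 in the prone strains (difference -0.85 ± 0.14, adjusted p = 0.018). Knstrn, a spindle protein, gave 0.04 ± 0.09 in the resistant and 0.91 ± 0.10 in the prone strains (difference -0.87 ± 0.14, adjusted p = 0.018), and Ncapg2, a condensin subunit, -0.07 ± 0.10 and 0.66 ± 0.10 (difference -0.73 ± 0.14, adjusted p = 0.039). The difference call was lost in 14 of 23 alternative analyses for Ncapg2, in 6 of 24 for Knstrn and in 5 of 24 for Racgap1. In the 12-array fit 3 of the 26 rose, and 7 did without the BALB/cJ TG mouse that was high in clock genes, 5 without the BALB/cJ WT mouse, 0 without that of 129 and 1 without that of C3H, where 1 fell.

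Other genes had a smaller rise or a larger fall in the resistant strains. Itgb6 gave 1.16 ± 0.14 against 1.79 ± 0.09 in the prone strains (difference -0.63 ± 0.13, adjusted p = 0.04), and Lama1, a laminin chain, 0.40 ± 0.05 against 1.18 ± 0.11 (difference -0.79 ± 0.16, adjusted p = 0.04). Nrcam, a neuronal adhesion molecule, differed by -0.83 ± 0.17. Of 24 alternative analyses these calls were lost in 11 for Itgb6, 13 for Lama1 and 14 for Nrcam. Htr2b, a serotonin receptor, fell in the resistant strains (-0.48 ± 0.12) and rose in the prone ones (0.39 ± 0.10), a difference lost in 5. Esm1 fell more in the resistant strains (-1.52 ± 0.09) than in the prone strains (-0.84 ± 0.09), a difference of -0.69 ± 0.14 (adjusted p = 0.039, lost in 12). Collagen genes had 10 calls in the resistant and 18 in the prone strains, all higher, with medians of 0.22 and 0.43. Higher calls over all genes were likewise fewer in the resistant (4.92%) than in the prone strains (12%). The collagen difference passed for 0 of 21 in limma (10 at an unadjusted p under 0.05). Col1a1 stood at 0.77 against 1.25 (difference -0.48, adjusted p = 0.1) and Col3a1 at 0.90 against 1.05 (adjusted p = 0.67).

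Several genes had a higher effect in the resistant strains. Bpifb1 rose in the resistant strains (1.35 ± 0.29) and had -0.32 ± 0.23 in the prone strains, a difference of 1.66 ± 0.33 (adjusted p = 0.039). That call was lost in 14 of 24 alternative analyses. Its strain effects were 2.24 in 129, 0.95 in BALB/cJ and 0.85 in C3H. Lrat, the enzyme that forms retinyl esters, stood at -0.19 ± 0.17 in the resistant strains without passing and fell by 1.58 in the prone strains (difference 1.39 ± 0.29, adjusted p = 0.043), a call lost in 17 of 24 alternatives. Gsta3 fell less in the resistant strains (-0.65 ± 0.12, against -1.69 ± 0.14 in the prone strains; difference 1.03 ± 0.20, lost in 12 of 24 alternatives), and so did 1810010H24Rik (-0.69 ± 0.12 against -1.78 ± 0.10; difference 1.09 ± 0.15, lost in 3). Nlrp1a, an inflammasome sensor, and H2-Q5, a class I gene, had differences of 0.95 and 0.83 that came from a fall in the prone strains, with 0.09 and 0.20 in the resistant strains, calls lost in 11 of 23 and 7 of 24 alternatives. Nlrp1a was dim in the resistant strains, at 5.06 to 5.34 in TG mice, under the lower quartile of all values, 6.75. For the ciliated cell list, 1 of 18 rose and 0 fell in the resistant strains, against 0 and 13 in the prone strains (medians 0.03 and -0.37), while the difference passed for 0 of the 18 genes in limma (13 at an unadjusted p under 0.05). Over all genes 4.92% rose and 5.78% fell in the resistant strains, against 12% and 11.5% in the prone strains.

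**Figure D5:**
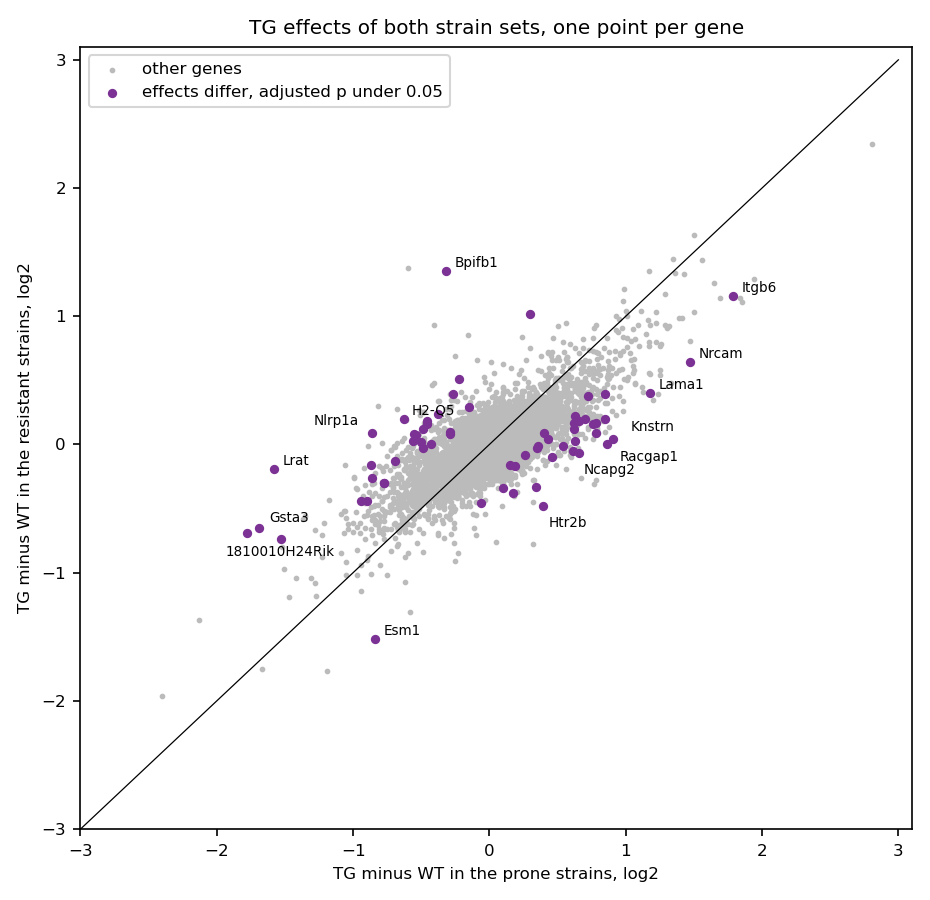
TG minus WT difference (log2) of each of 13499 genes in the resistant strains (vertical) against the prone strains (horizontal), with the line of equal effects; purple points are the 64 genes for which the difference passed limma at an adjusted p under 0.05. Bpifb1 lies above the line with 1.35 in the resistant and -0.32 in the prone strains, and Itgb6 below it with 1.16 and 1.79.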

How the data were processed

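Whole-transcript array values were used as deposited by the authors, in a single table of log2 intensities per probe set; the log base was read from their range of 3.41 to 14.75. Not given in the sources used here are the summarisation, normalisation, software and build. Array medians lay at 7.76 to 7.83, and no further scaling was applied. The table was held in part: 25285 probe sets, 1 incomplete and left out, which hold 76.1% to 91.7% of the protein-coding genes that RefSeq places on each of chromosomes 1 to 4 and 10 to 19. For chromosome 5 the share was 26.3%, and for 6 to 9 and X it did not exceed 1.97%. Of the probe sets 14539 had 1 gene symbol, 781 several and 9964 were unnamed here; 14480 matched RefSeq by Entrez identifier. The brightest probe set stood for each of 590 genes with several. Paralogues can share probe sequence, so Hsd3b2, Chia1, Gsta3, Lyz1, Aldh1a7, Cyp4f15, Nlrp1a and the H2 genes are uncertain as to copy.

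The TG effect was fitted with limma 3.58.1 in R 4.3.3 (lmFit, eBayes, two-sided; strain plus genotype; 12 arrays, 8 residual degrees of freedom). Single strains, strain dependence and the prone comparison used 12 group means over 24 arrays (12 residual degrees of freedom), which assumes that a lone WT mouse varies like the other groups. P-values were adjusted over all 13499 genes by Benjamini and Hochberg, threshold 0.05. Same-group mice correlated at 0.9936 to 0.9967 (9 pairs), the median residual SD was 0.099, and array number limits the precision. The labels name separate samples. With 1 WT mouse in each strain, the 12-array fit measures no spread between WT mice of a strain. Its p-values rest on the spread of TG mice within strains and on how far the strain effects differ. It too assumes that WT mice vary like TG mice. The script was tested on simulated data. Python 3.11.15 with pandas 2.3.3 wrote the tables, and matplotlib 3.10.9 drew the plots.

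The members, the 40 gene lists (510 of 768 genes measured) and the rules were chosen with earlier results of these data known. Named genes were the 15 largest called changes each way with all TG mice on the same side of their own WT mouse, the 6 called genes whose strain dependence had the lowest p, the 6 largest called differences from the prone strains each way, up to 4 members of largest change of a list and members that went against it. Further list members given as examples were chosen after their values were seen. Alternatives left out single mice of the resistant strains, but none of the prone strains, or left out whole strains. Other alternatives were array weights, a trended robust prior, 2 normalisations, no dim genes, mean probe sets and all probe sets. No strain term, the 24-array fit and a stricter threshold were used too.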

Additional observations from a re-analysis of the deposited data

Results flagged for a closer look

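In 8 genes the TG effects of 129, BALB/cJ and C3H differed by limma's F test. The largest minus the smallest strain effect was 4.07 log2 units for Ppbp, 2.89 for Rgs18, 1.89 for Scarna13, 1.88 for Tubb1, 1.82 for F5, 1.66 for P2ry12, 1.58 for Pf4 and 1.09 for Mcpt4. The BALB/cJ WT mouse carried Ppbp, Rgs18, Tubb1, F5, P2ry12 and Pf4, the 129 WT mouse Scarna13 and the C3H WT mouse Mcpt4.

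Of the 64 genes whose TG effect differed in the test of resistant minus prone strains, those that the naming rule covers are given here. The effect was lower in the resistant strains for Htr2b (-0.87), Knstrn (-0.87), Racgap1 (-0.85), Nrcam (-0.83), Lama1 (-0.79), Ncapg2 (-0.73), Esm1 (-0.69), Itgb6 (-0.63) and P2ry12 (-0.55). It was higher for Bpifb1 (1.66), Lrat (1.39), 1810010H24Rik (1.09), Gsta3 (1.03), Nlrp1a (0.95), H2-Q5 (0.83), Cyp4b1 (0.79) and Chil1 (0.72). Of 24 alternative analyses the call was lost in 3 for 1810010H24Rik, 5 for Htr2b and Racgap1, 6 for Knstrn, 7 for H2-Q5 and Chil1, 9 for P2ry12, 11 for Itgb6, 12 for Gsta3, Cyp4b1 and Esm1, 13 for Lama1, 14 for Nrcam and Bpifb1 and 17 for Lrat. Of 23 it was lost in 11 for Nlrp1a and 14 for Ncapg2. No group had 4 or more mice, so single mice were not tested as outliers.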

How the results depend on the processing

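The TG effect in the resistant strains gave 1147 to 1583 called genes under every alternative other than those given next (array weights 1261, trended robust prior 1583, quantile normalisation 1525, median centring 1476, the 24-array fit 1444). It was 775 with no strain term, 617 at an adjusted p under 0.01, and 513 without 129, 548 without BALB/cJ and 923 without C3H; leaving out single mice gave 567 (the 129 WT mouse) to 1477, with 720 without the BALB/cJ WT mouse. Strain dependence gave 18 genes with array weights and 2 to 18 without single mice. In 129 the count was 635 with array weights and 226 to 413 without single mice, in BALB/cJ 618 and 142 to 436, and in C3H 16 to 115 without single mice. The difference from the prone strains gave 289 genes with array weights and 6 to 128 without single mice of the resistant strains. With whole strains left out it gave 4 without 129, 1 without BALB/cJ, 15 without C3H, 8 without A/J, 363 without AKR/J and 5 without C57BL/6J. Leaving out mice or strains reduces the samples; for the other settings the cause was not tested. For the 30 genes of largest change under the naming rule 669 of 689 alternative values kept their call. The call was lost in 20 (Car3 13, Fabp4 4, Slc26a4 2, Ntrk2 1) and 0 reversed. For all 110 named called genes 298 of 2528 lost it and 0 reversed. These genes were chosen as called in the same arrays, and the 30 also for size and for TG mice on the same side. Kept calls are favoured by that choice and are no independent support. No paired analysis was possible because each resistant strain had 1 WT mouse and the labels name no pairs of mice. Counts of list calls without the mice that stand apart were added after seeing the data. Signal over background was not given, which leaves dim genes without a detection limit.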

Other observations

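Retinoid genes had calls in both directions: of 10 measured, 1 rose and 4 fell in TG mice of the resistant strains (median -0.16), and 0 rose and 2 fell without the 129 WT mouse. The retinoic acid receptor Rarb (-0.59), the retinol dehydrogenase Adh7 (-0.42) and the plasma retinol carrier Rbp4 (-0.40) fell, and Adh1 (0.49) rose. Of 4 fat cell genes 2 fell, and 0 were called without the C3H WT mouse. Of 10 platelet genes 1 rose and 1 fell (8 at an unadjusted p under 0.05), against 1 and 8 in the 24-array fit. Without the BALB/cJ WT mouse, which was high in them, 1 rose and 0 fell, without that of 129 0 rose and 3 fell, without that of C3H 1 rose and 4 fell, and without the 129 TG mouse high in neutrophil genes 1 rose and 2 fell. Of 11 circadian clock genes 0 were called by limma, 5 had an unadjusted p under 0.05, and 5 fell without the BALB/cJ TG mouse that was high in them. Hypoxia and glycolysis genes (8 measured) and NRF2 antioxidant genes (6 measured) each had 1 higher and 1 lower, and 1 of 7 thymus genes fell. Mesothelium (4 measured), skeletal muscle (5) and red cell genes (2) had 0 calls by limma, with 2, 0 and 0 at an unadjusted p under 0.05. The 5 skeletal muscle genes were all dim, under the lower quartile of all values.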
